A study of Mus musculus with 36 samples.

Results

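Growth factor receptor tyrosine kinases were followed through 8 genes in mouse embryonic fibroblasts (MEFs): the platelet-derived growth factor (PDGF) receptors Pdgfra and Pdgfrb, the fibroblast growth factor (FGF) receptors Fgfr1 and Fgfr2, the epidermal growth factor (EGF) receptor Egfr, the hepatocyte growth factor receptor Met, the Gas6 receptor Axl and the collagen receptor Ddr2. They were chosen by symbol, as the probe sets whose platform gene was a member, which gave 17 of the 20380 probe sets with 1 gene and 8 of 12393 genes. The cells were PKBa-/- MEFs, which lack Akt1, the gene of protein kinase B alpha (PKB alpha), and wild type MEFs. Both came from intercrosses of heterozygous mice as embryos aged 13.5 days, without head and visceral organs, and were used at passages 15 to 20. RNA was measured on 36 Affymetrix arrays at times labelled 0, 2, 6, 24 and 48, with no unit. Each genotype had 4 arrays at a time, except time 2 with 2 arrays (replicates 1 and 2). The series title gives DMEM as the treatment of both genotypes, while the protocol also describes an adipocyte induction mixture of insulin, dexamethasone and 3-isobutyl-1-methylxanthine. The array labels do not say which of these the cells received at the later times. They also do not say how many embryos or lines stand behind a genotype, or that replicates were separate cultures. Genotype and cell line therefore cannot be told apart, and the p-values measure only the spread between these samples.

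These receptors sit in the plasma membrane, and for most of them a bound ligand brings the receptors together so that their kinase domains phosphorylate each other. The phosphotyrosines recruit adaptor proteins that start the Ras-ERK cascade and phosphatidylinositol 3-kinase, the enzyme upstream of PKB. In fibroblasts the PDGF and FGF receptors are known for driving division, migration and matrix production, and ERK signalling in turn switches on genes of its own inhibitors. These genes were compared between the genotypes at each time, and between each later time and time 0.

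All values below are signals on the linear scale of the deposited table, where array medians ran from 134 to 145, or differences of log2(signal + 32) ± SE. Each gene was read on its brightest probe set. The arrays of replicates 1 and 2 of a group, and those of replicates 3 and 4, resembled each other more (mean correlation 0.993) than the other pair (0.969). Each pair was therefore averaged before the limma fit of 18 pair averages, and a gene is said to have passed at an adjusted p below 0.05. Within a genotype, same-numbered arrays of times 0, 6, 24 and 48 deviated together, with correlations above 0.1 in 23 of 24 pairs in PKBa-/- (0.0359 to 0.594) and in 24 of 24 in wild type cells (0.480 to 0.720). Changes from time 0 are therefore also given from a fit with the replicate set of each genotype as a block, where that alters a call. The fit without the block stands first throughout. A test was run on the 7436 genes with a mean signal of about 123 or more, and all 8 members were among them. Akt1 signal was 74.3 ± 14.3 in PKBa-/- arrays and 1117 ± 183 in wild type arrays (SD, n = 18 each), with no overlap (log2 difference -3.45 ± 0.10, adjusted p = 3.1e-11). All 11 fibroblast markers on the array lay above the signal limit, with summed signals of 70787 to 82925 in PKBa-/- and 58596 to 74852 in wild type arrays. Of 9 epithelial markers none did, Cdh1 and Epcam included, and of 8 endothelial markers Kdr alone did, whereas Pecam1 and Cdh5 did not. Of 5 mesothelial markers on the array 3 did, with sums over the 5 of 194 to 264 in PKBa-/- and 4873 to 8408 in wild type arrays. Summed smooth muscle and pericyte markers (5 of 8 above the limit) ran from 6671 to 16404 and from 3041 to 15004, adipocyte markers (2 of 5) from 899 to 2037 and from 2432 to 5737, and macrophage markers (2 of 8) from 538 to 837 and from 671 to 1238, in PKBa-/- and wild type arrays in that order. The mesothelial and adipocyte marker sums differed between the genotypes without overlap. Averaged over times, all 3 tested mesothelial markers were lower in PKBa-/- cells. Of the 2 tested adipocyte markers 1 was higher and 1 lower, so that the sum does not stand for both. Over all genes tested 26.5% were higher and 20.9% lower. The part of these markers in the receptor differences below was not tested. In RNA from whole cultures, fewer cells of a type and less RNA per cell cannot be told apart.

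Averaged over the 5 times, 7 of the 8 receptor genes differed between the genotypes, 5 of them higher and 2 lower in PKBa-/- cells. Without Met, whose PKBa-/- level lay under the signal limit, these were 6 of 7. Pdgfrb, Fgfr2, Fgfr1, Ddr2 and Axl were higher, while Met and Egfr were lower. Over all genes tested 47.4% passed this comparison, 26.5% higher and 20.9% lower, so that a gene drawn from the array at large also passed often. The averaged comparison took the pair averages of a genotype as independent over the times. Same-numbered arrays deviated together over times, and a gap between replicate sets carried through them does not average out. The SE and adjusted p of averaged differences may therefore be too small, for all genes tested as for the members. The median difference of the members was 0.41, and that of all genes tested was 0.03. The members were chosen with earlier results of these data known, so that their counts and median beside those of all genes are a description alone. The PDGF receptor Pdgfrb had the largest difference of the 8 (1.32 ± 0.15, adjusted p = 1.4e-05), a 2.49-fold higher signal in PKBa-/- cells on the signal + 32 scale. Fgfr2 (0.77 ± 0.10, adjusted p = 4.4e-05), Fgfr1 (0.52 ± 0.07, adjusted p = 3.9e-05) and Ddr2 (0.51 ± 0.11, adjusted p = 0.002) followed. Axl gave 0.30 ± 0.07, adjusted p = 0.0024, but only 0.10 (adjusted p = 0.10) with the mean of its probe sets, of which the dimmer had a mean signal of 17.9. On the same scale Met was 2.2-fold lower (-1.14 ± 0.23, adjusted p = 0.0012) and Egfr 1.49-fold lower (-0.58 ± 0.10, adjusted p = 0.00033). The size for Met is not well set, since its PKBa-/- level is dim, with -1.25 at an offset of 16 and -0.97 at an offset of 64. Pdgfra did not pass (0.23 ± 0.12, adjusted p = 0.12, 95% interval -0.02 to 0.49), and without time 2 it did (0.32, adjusted p = 0.046). Within replicates 1 and 2 and within replicates 3 and 4 the averaged differences were 1.37 and 1.18 for Pdgfrb, 0.99 and 0.42 for Fgfr2, 0.45 and 0.57 for Fgfr1, and 0.53 and 0.47 for Ddr2. They were 0.36 and 0.19 for Axl, -0.89 and -1.63 for Met, -0.54 and -0.63 for Egfr, and 0.09 and 0.49 for Pdgfra. Each of the 8 kept its sign in both replicate sets.

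**Figure D1:**
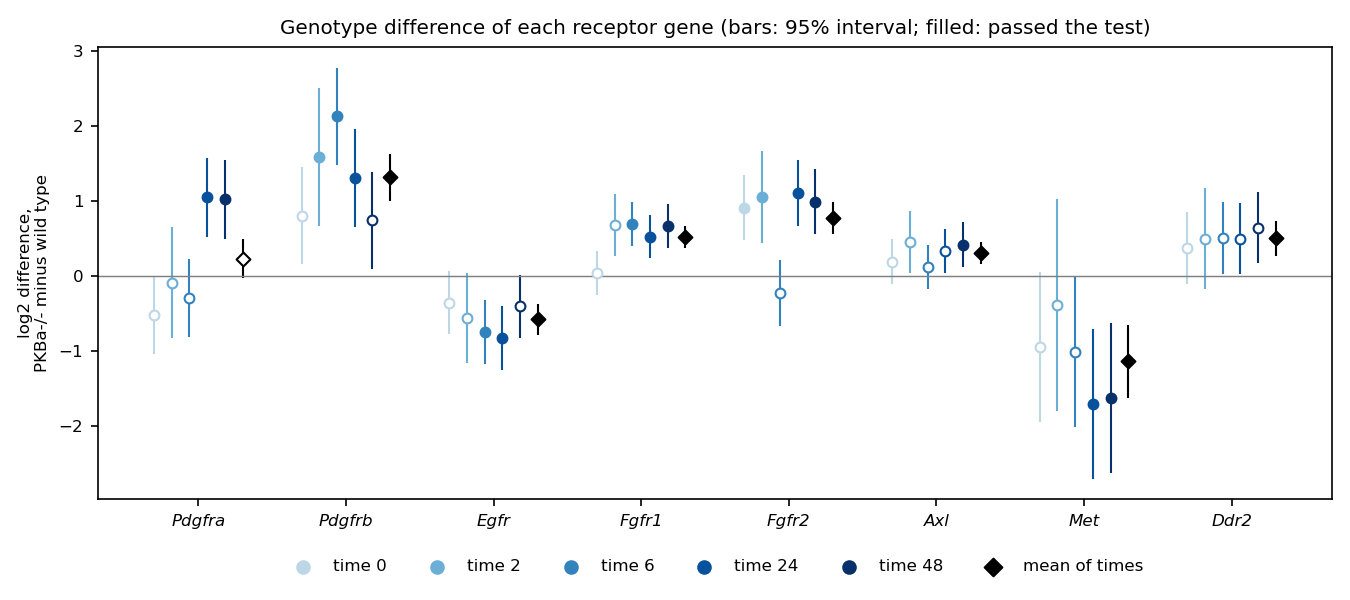
Log2 difference, PKBa-/- minus wild type, of each receptor gene at the 5 times (circles, light to dark blue) and averaged over them (diamonds), with 95% intervals from the limma fit; filled symbols passed at an adjusted p below 0.05. Pdgfra lies at or below 0 at times 0, 2 and 6 and near 1 at times 24 and 48, while Met and Egfr lie below 0 at every time.

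RefSeq promoter windows (mouse build GRCm38.p6, 250 bases before to 50 after 1 annotated start) were found for 6 of the 8 members, Pdgfra, Egfr, Fgfr2, Axl, Met and Ddr2. They were searched on both strands for the forkhead core GTAAACA, to which FoxO factors, substrates of PKB, bind, for the short form TGACG of the cAMP response element, and for the GC box GGGCGG. These letters occur in 3.65%, 20.8% and 35.7% of 32851 such windows. The sequences of Pdgfra and Fgfr2, higher in PKBa-/- cells at times 24 and 48, of Met and Egfr, lower in them, and of Axl, which holds the forkhead core, are shown from 5′ to 3′ on the gene's strand, with matches in capitals.
Pdgfra, chr5:75152001-75152300 (plus strand): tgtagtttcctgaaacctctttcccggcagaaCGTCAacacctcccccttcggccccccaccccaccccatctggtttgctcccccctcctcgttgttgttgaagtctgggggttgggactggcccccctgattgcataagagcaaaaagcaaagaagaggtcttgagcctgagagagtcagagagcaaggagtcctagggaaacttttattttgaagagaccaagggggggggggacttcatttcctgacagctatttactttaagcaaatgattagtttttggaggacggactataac
Fgfr2, chr7:130266759-130267058 (minus strand): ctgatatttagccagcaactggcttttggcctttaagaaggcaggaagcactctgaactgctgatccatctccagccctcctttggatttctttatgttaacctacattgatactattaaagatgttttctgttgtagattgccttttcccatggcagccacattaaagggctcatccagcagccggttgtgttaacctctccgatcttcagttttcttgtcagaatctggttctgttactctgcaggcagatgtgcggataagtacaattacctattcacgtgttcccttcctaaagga
Met, chr6:17463707-17464006 (plus strand): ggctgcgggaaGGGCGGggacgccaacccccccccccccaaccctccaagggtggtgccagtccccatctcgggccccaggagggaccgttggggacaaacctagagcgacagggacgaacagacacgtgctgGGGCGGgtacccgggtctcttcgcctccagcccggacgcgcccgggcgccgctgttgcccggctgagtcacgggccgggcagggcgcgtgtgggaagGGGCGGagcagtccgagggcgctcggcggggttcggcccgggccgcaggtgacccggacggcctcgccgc
Egfr, chr11:16751953-16752252 (plus strand): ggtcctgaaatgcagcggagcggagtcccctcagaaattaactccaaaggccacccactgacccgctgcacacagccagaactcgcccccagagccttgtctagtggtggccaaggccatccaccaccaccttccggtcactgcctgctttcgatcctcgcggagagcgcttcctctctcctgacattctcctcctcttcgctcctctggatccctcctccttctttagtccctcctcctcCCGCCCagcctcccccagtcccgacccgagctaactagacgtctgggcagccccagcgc
Axl, chr7:25788684-25788983 (minus strand): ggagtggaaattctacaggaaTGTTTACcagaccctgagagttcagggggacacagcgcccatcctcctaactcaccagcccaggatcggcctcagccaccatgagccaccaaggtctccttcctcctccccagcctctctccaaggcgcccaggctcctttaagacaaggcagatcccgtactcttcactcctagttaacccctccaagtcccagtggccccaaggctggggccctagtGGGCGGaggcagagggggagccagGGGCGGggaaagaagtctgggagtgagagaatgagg
The Axl window had 1 forkhead core, on the reverse strand and starting 229 bases before the start, and 2 GC boxes. The Pdgfra window had 1 short cAMP response element, TGACG, on the reverse strand and no other match. Met had 3 GC boxes and 34 CG dinucleotides, against a median of 7 over all windows, and Egfr had 1 GC box on the reverse strand and 15 CG dinucleotides. Fgfr2 and Ddr2, with 4 and 2 CG dinucleotides, had no match in these windows. No matches of different motifs overlapped. The matches are given as letters in these windows alone.

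**Figure D2:**
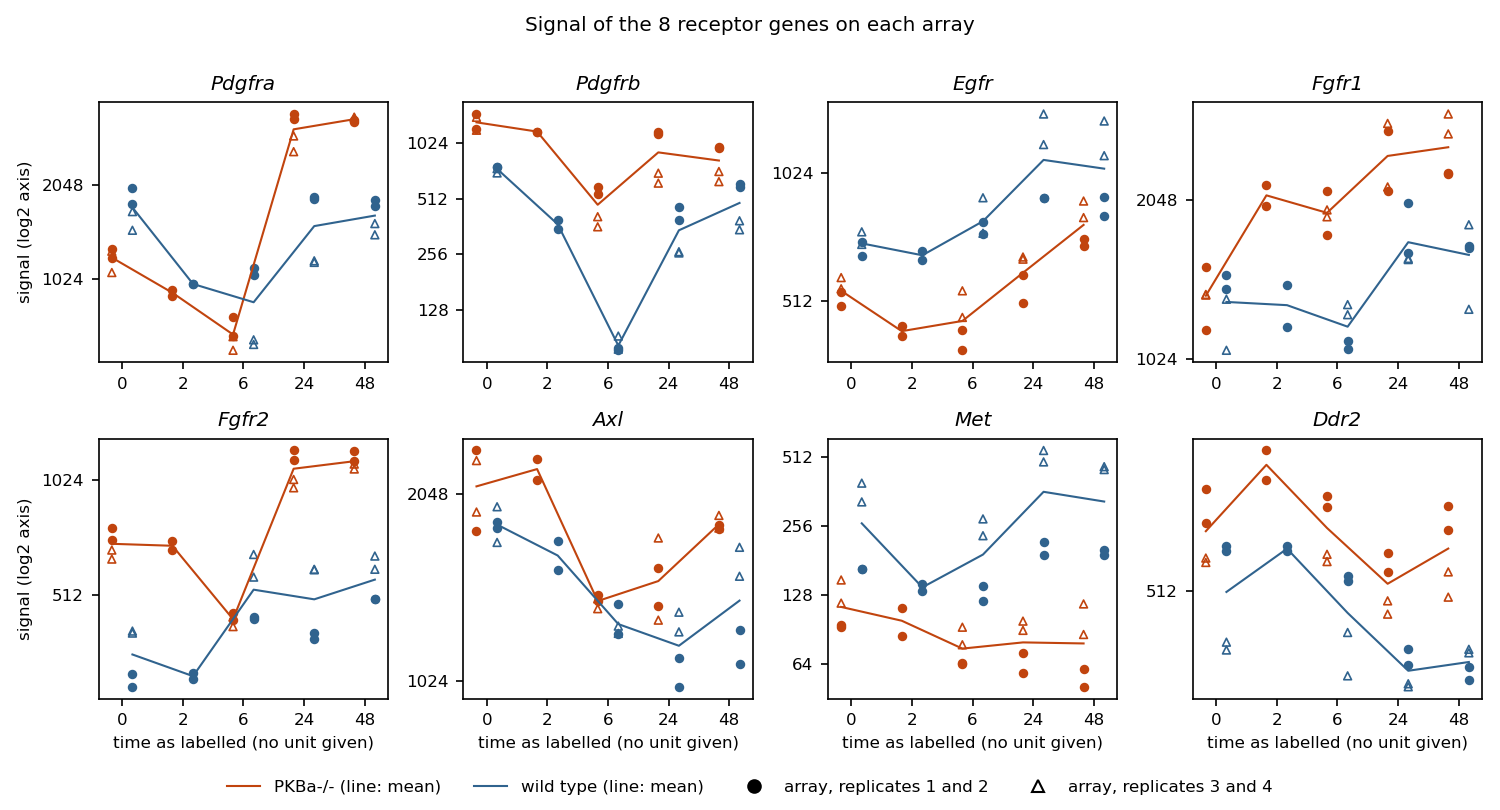
Signal of each receptor gene on every array (log2 axis) by labelled time, with PKBa-/- in orange and wild type in blue; lines join group means, filled circles are replicates 1 and 2 and open triangles replicates 3 and 4. The wild type arrays of Pdgfrb drop to 77.3 to 92.3 at time 6, and the PKBa-/- arrays of Pdgfra reach 2628 to 3476 at time 24.

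Pdgfra encodes the PDGF receptor alpha, which binds the A, B and C chains of PDGF and marks mesenchymal progenitors. At time 0 its signal was 1191, 1272, 1255 and 1072 in PKBa-/- arrays, against 2011, 1787, 1466 and 1684 in wild type arrays. At time 2 it was 902 and 942 in PKBa-/- and 981 and 988 in wild type, and at time 6 668, 769, 602 and 666 in PKBa-/- and 1048, 1111, 628 and 650.2 in wild type. PKBa-/- arrays lay below wild type at times 0 and 2 without overlap, and the genotypes overlapped at time 6. At time 24 the PKBa-/- arrays read 3352, 3476, 2954 and 2628, against 1874, 1852, 1169 and 1155 in wild type. At time 48 they read 3324, 3286, 3374 and 3396, against 1832, 1750.0, 1418 and 1541 in wild type. Every PKBa-/- array was then above every wild type array. The difference passed at times 24 (1.05 ± 0.24, adjusted p = 0.0085) and 48 (1.03 ± 0.24, adjusted p = 0.009), and at times 0, 2 and 6 it was -0.52 ± 0.24, -0.09 ± 0.34 and -0.29 ± 0.24 (adjusted p = 0.18, 0.95 and 0.49). From its own time 0, Pdgfra fell at time 6 in PKBa-/- (-0.80 ± 0.24, adjusted p = 0.038) and in wild type cells (-1.03 ± 0.24, adjusted p = 0.018). The fall in PKBa-/- did not pass without PKBa-/- time 6 replicate 1 (-0.75, adjusted p = 0.052) or without PKBa-/- time 0 replicate 3 (-0.74, adjusted p = 0.053), nor without the filter on low signals (adjusted p = 0.064), while with the replicate block it did (adjusted p = 2e-04). In PKBa-/- cells it then rose 2.54-fold at time 24 (1.34 ± 0.24, adjusted p = 0.0063) and 2.75-fold at time 48 (1.46 ± 0.24, adjusted p = 0.0028), whereas wild type cells gave -0.23 ± 0.24 and -0.08 ± 0.24 (adjusted p = 0.67 and 0.88).

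Pdgfrb encodes the PDGF receptor beta, the receptor of PDGF B chains on fibroblasts and pericytes. At time 0 its signal was 1224, 1478, 1418 and 1207 in PKBa-/- arrays and 758, 765, 708 and 747 in wild type arrays. At time 2 the values were 1186 and 1188 in PKBa-/- and 353 and 392 in wild type. At time 6 they were 541, 592, 361 and 409.8 in PKBa-/- and 77.3, 80.0, 92.3 and 78.3 in wild type, which put all 4 wild type arrays below the signal limit of 123. At time 24 the PKBa-/- arrays read 1153, 1179, 623 and 706 and the wild type arrays 465, 393, 265 and 261. At time 48 they read 967, 984, 635 and 721 in PKBa-/- and 617, 592, 389 and 348 in wild type. Every PKBa-/- array was above every wild type array at each of the 5 times. The difference passed at times 2 (1.59 ± 0.42, adjusted p = 0.047), 6 (2.13 ± 0.30, adjusted p = 0.00038) and 24 (1.31 ± 0.30, adjusted p = 0.0083), and gave 0.81 ± 0.30 and 0.74 ± 0.30 at times 0 and 48 (adjusted p = 0.095 and 0.095). At time 2, with 1 pair average a genotype, it was lost without wild type time 2 replicate 1 (1.52, adjusted p = 0.058) and without the filter on low signals (adjusted p = 0.079). Within PKBa-/- cells Pdgfrb fell by time 6 to a mean of 476 ± 108 (SD, n = 4; -1.44 ± 0.30, adjusted p = 0.0061), and within wild type cells to 82.0 ± 6.97 (SD, n = 4), 6.82-fold lower than at time 0 on the signal + 32 scale. At times 24 and 48 it was -0.57 ± 0.30 and -0.69 ± 0.30 from time 0 in PKBa-/- cells, and -1.08 ± 0.30 and -0.62 ± 0.30 in wild type cells, with adjusted p of 0.33, 0.21, 0.059 and 0.27. The wild type value at time 24 passed without wild type time 24 replicate 1 (-1.13, adjusted p = 0.041). With the replicate block all 4 of these changes passed (adjusted p = 0.037 and 0.014 in PKBa-/-, and 9e-04 and 0.025 in wild type cells).

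Fgfr1, the main FGF receptor of mesenchymal cells, overlapped between the genotypes at time 0, with 1526, 1160.2, 1353 and 1356 in PKBa-/- and 1386, 1473, 1064 and 1328 in wild type arrays. At time 2 it read 1992 and 2181 in PKBa-/- and 1177 and 1412 in wild type, and at time 6 2122, 1753, 1959 and 1901 and 1106, 1070.2, 1242 and 1298, in the same order of genotypes. PKBa-/- arrays were above wild type from time 2 onward, with no overlap at any of the 4 later times. At time 24 PKBa-/- arrays gave 2129, 2759, 2852 and 2164 and wild type arrays 2017, 1626, 1586 and 1578. At time 48 they gave 2289.5, 2301, 2725 and 2971 in PKBa-/- and 1677, 1658, 1271 and 1836 in wild type. The difference was 0.04 ± 0.13 at time 0 (adjusted p = 0.86, 95% interval -0.25 to 0.33) and passed at times 6 (0.70 ± 0.13, adjusted p = 0.0036), 24 (0.53 ± 0.13, adjusted p = 0.015) and 48 (0.67 ± 0.13, adjusted p = 0.0036). The call at time 24 was lost without PKBa-/- time 24 replicate 2 (0.44, adjusted p = 0.051) and with a random pair effect (adjusted p = 0.076), and that at time 2 (0.68 ± 0.19, adjusted p = 0.06) was gained without PKBa-/- time 2 replicate 1 (0.74, adjusted p = 0.038) or wild type time 2 replicate 2 (0.81, adjusted p = 0.023). Over time Fgfr1 rose in PKBa-/- cells at times 6 (0.51 ± 0.13, adjusted p = 0.02), 24 (0.85 ± 0.13, adjusted p = 0.0029) and 48 (0.91 ± 0.13, adjusted p = 0.0014). The rise at time 6 did not pass without PKBa-/- time 0 replicate 2 (0.42, adjusted p = 0.056) or with a random pair effect (adjusted p = 0.090). Wild type cells gave -0.15 ± 0.13, 0.37 ± 0.13 and 0.29 ± 0.13 at times 6, 24 and 48 (adjusted p = 0.54, 0.14 and 0.26), and with the replicate block the value at time 24 passed (adjusted p = 0.035).

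Fgfr2, an FGF receptor whose splice forms bind different FGFs, differed at time 0 already, with 765, 714, 670.4 and 635 in PKBa-/- and 317, 294, 411 and 406 in wild type arrays (0.91 ± 0.20, adjusted p = 0.0088). At time 2 the values were 707 and 669 in PKBa-/- and 308 and 319 in wild type arrays (1.06 ± 0.28, adjusted p = 0.049). This call at time 2 was lost without wild type time 2 replicate 1 (1.03, adjusted p = 0.055) and without PKBa-/- time 2 replicate 1 (1.02, adjusted p = 0.056), and without the filter on low signals it gave an adjusted p of 0.071. At time 6 the genotypes met, with 439.7, 458, 448 and 423 in PKBa-/- and 447, 443, 569.5 and 653 in wild type arrays (-0.22 ± 0.20, adjusted p = 0.53). By time 24 they stood apart again, at 1221, 1154, 1026 and 975 in PKBa-/- and 408, 393, 595 and 597 in wild type arrays (1.11 ± 0.20, adjusted p = 0.002). At time 48 PKBa-/- arrays read 1143, 1219, 1092 and 1125 and wild type arrays 499.8, 500.4, 597 and 647 (1.00 ± 0.20, adjusted p = 0.0036). PKBa-/- arrays lay above wild type without overlap at every time but time 6. Between time 0 and time 6 the change was -0.62 ± 0.20 in PKBa-/- (adjusted p = 0.052) and 0.52 ± 0.20 in wild type cells (adjusted p = 0.12). The PKBa-/- change passed when any of 4 single arrays was left out (PKBa-/- time 0 replicate 2 or 4, or time 6 replicate 2 or 3), with -0.64 to -0.63 and adjusted p of 0.045 to 0.048. By times 24 and 48 the change was 0.63 ± 0.20 and 0.69 ± 0.20 in PKBa-/- (adjusted p = 0.093 and 0.057), and 0.43 ± 0.20 and 0.61 ± 0.20 in wild type cells (adjusted p = 0.26 and 0.1). The PKBa-/- value at time 48 passed without PKBa-/- time 0 replicate 1 (0.72, adjusted p = 0.048). With the replicate block all 6 changes of Fgfr2 at times 6, 24 and 48 passed, with adjusted p of 0.00014, 0.00025 and 8.4e-05 in PKBa-/-, and 0.00073, 0.0039 and 0.00029 in wild type cells. The signs at time 6 were opposite, lower in PKBa-/- and higher in wild type cells.

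Egfr, the receptor of EGF and of heparin-binding EGF-like growth factor (Hbegf), was lower in PKBa-/- cells. At time 0 it read 537, 497, 546 and 580.0 in PKBa-/- and 704, 651, 695 and 744 in wild type arrays. At time 2 it read 422 and 445 in PKBa-/- and 671 and 639 in wild type, and at time 6 391, 435, 539.8 and 467 in PKBa-/- and 736, 783, 738 and 895 in wild type. At time 24 the PKBa-/- arrays gave 504, 588, 641 and 649 and the wild type arrays 896, 895, 1195 and 1411. The genotypes did not overlap at any of these 4 times, and overlapped at time 48, with 717, 690.0, 879 and 804 in PKBa-/- and 899, 811, 1125 and 1358 in wild type. The difference passed at times 6 (-0.75 ± 0.20, adjusted p = 0.022) and 24 (-0.83 ± 0.20, adjusted p = 0.0097), and was -0.35 ± 0.20, -0.56 ± 0.28 and -0.40 ± 0.20 at times 0, 2 and 48 (adjusted p = 0.26, 0.32 and 0.16). No change of Egfr from time 0 passed in either genotype on this probe set without the block. With the replicate block the gains at time 48 in PKBa-/- (0.49, adjusted p = 0.0072 blocked) and at times 24 and 48 in wild type cells (0.61 and 0.54, adjusted p = 0.0021 and 0.0045 blocked) passed.

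Met, the receptor that carries the scatter and growth response to hepatocyte growth factor, was the dimmest member. At time 0 it read 93.2, 94.8, 149 and 118 in PKBa-/- and 166, 167, 326 and 394 in wild type arrays. Time 2 gave 85.5 and 113 in PKBa-/- and 134 and 144 in wild type, and at time 6 64.1, 65.1, 77.9 and 92.9 in PKBa-/- and 121, 141, 275 and 233 in wild type. All PKBa-/- arrays lay below all wild type arrays of their time, and their means, 75.0 to 114 over the times, were under the signal limit that the gene passed through its wild type level. At time 24 PKBa-/- arrays gave 58.8, 71.7, 90.04 and 98.8 and wild type arrays 219, 192, 487 and 546, and at time 48 they gave 51.2, 61.0, 86.4 and 117 in PKBa-/- and 192, 202, 465 and 451 in wild type. The difference passed at times 24 (-1.70 ± 0.46, adjusted p = 0.02) and 48 (-1.63 ± 0.46, adjusted p = 0.023), with -0.95 ± 0.46, -0.39 ± 0.65 and -1.02 ± 0.46 at times 0, 2 and 6 (adjusted p = 0.2, 0.87 and 0.16). Since the PKBa-/- level at these times is under the limit, the sizes depend on the offset, with -1.86 and -1.79 at an offset of 16 and -1.47 and -1.39 at an offset of 64 at times 24 and 48. With the replicate block the changes from time 0 at times 6, 24 and 48 passed in PKBa-/- (-0.44, -0.38 and -0.42, adjusted p = 0.0053, 0.02 and 0.011), all at this dim level. In wild type cells those at times 6 and 24 did (-0.37 and 0.37, adjusted p = 0.017 and 0.023). The wild type arrays of replicates 3 and 4 were above those of replicates 1 and 2 at times 0, 6, 24 and 48, by 1.02 on average on the log2 scale, and by 0.41 in PKBa-/-. No other member had so large a gap between the replicate sets. The next were 0.48 for Pdgfra in wild type (replicates 1 and 2 higher), 0.46 for Pdgfrb in PKBa-/- (replicates 1 and 2 higher) and 0.41 for Fgfr2 in wild type (replicates 3 and 4 higher).

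Axl, a receptor of the TAM family whose ligand is Gas6, ran from 1789.6 to 2410.4 in PKBa-/- and from 1714 to 1956 in wild type arrays at time 0. At time 2 it read 2160.1 and 2339.7 in PKBa-/- and 1545 and 1720.2 in wild type arrays, and at time 24 1355, 1558, 1742 and 1285 in PKBa-/- and 1116, 1003, 1323 and 1229.8 in wild type. The genotypes overlapped at times 0, 6 and 24. At time 48 Axl read 1801, 1829, 1808 and 1894 in PKBa-/- and 1237, 1092, 1512 and 1683 in wild type arrays, without overlap. This was the only time at which its difference passed (0.42 ± 0.14, adjusted p = 0.043), and the call was lost without wild type time 48 replicate 3 (0.38, adjusted p = 0.086) and without PKBa-/- time 48 replicate 4 (0.40, adjusted p = 0.052), after quantile normalization (adjusted p = 0.092) and with a random pair effect (adjusted p = 0.085). At time 6 Axl had fallen in both genotypes, to 1340.3 to 1408 in PKBa-/- (-0.59 ± 0.14, adjusted p = 0.011) and 1221 to 1363 in wild type arrays (-0.52 ± 0.14, adjusted p = 0.029). The fall also passed at time 24 in wild type (-0.64 ± 0.14, adjusted p = 0.017), where PKBa-/- cells gave -0.50 ± 0.14, adjusted p = 0.052. That PKBa-/- value passed without any of 4 single arrays (PKBa-/- time 0 replicate 2 or 4, or time 24 replicate 2 or 3), with adjusted p of 0.023 to 0.041, and with the replicate block (adjusted p = 0.0056), as did the wild type value at time 48 (-0.42, adjusted p = 0.015). After quantile normalization the wild type falls were -0.44 at time 6 (adjusted p = 0.11) and -0.56 at time 24 (adjusted p = 0.070). With the mean of both Axl probe sets none of its calls passed, the fall in PKBa-/- at time 6 included (-0.30, adjusted p = 0.051).

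Ddr2, which is switched on by fibrillar collagen, read 793, 686, 578 and 589 in PKBa-/- and 608, 622, 396 and 410.0 in wild type arrays at time 0, where the genotypes overlapped. Time 2 gave 936 and 824 in PKBa-/- and 606 and 620.3 in wild type, and at time 6 769, 734, 599 and 580.2 in PKBa-/- and 545, 533, 355 and 427 in wild type. At time 24 it read 556, 601, 463 and 489.9 in PKBa-/- and 398, 371, 343 and 338 in wild type, and at time 48 738, 664, 555 and 498 in PKBa-/- and 369, 348, 392 and 398 in wild type. At times 2, 6, 24 and 48 every PKBa-/- array was above every wild type array. No single time passed, with differences of 0.38 ± 0.22, 0.50 ± 0.31, 0.51 ± 0.22, 0.50 ± 0.22 and 0.65 ± 0.22 at the 5 times in order (adjusted p = 0.28, 0.47, 0.14, 0.14 and 0.051). Its difference at time 48 passed when any of 4 single arrays of that time was left out, with adjusted p of 0.038 to 0.049. No change of Ddr2 from time 0 passed in either genotype, and with the replicate block that of wild type cells at time 24 did (-0.43, adjusted p = 0.03).

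Counted by time, the genotype difference passed in 1 of the 8 receptor genes at time 0, where 14.9% of all genes tested passed (6.48% higher and 8.42% lower in PKBa-/- cells). At time 2 it passed in 2 members (5.82% of all genes, 2.97% higher and 2.85% lower), and at time 6 in 3 (16.6%, 8.51% higher and 8.07% lower). At time 24 it passed in 6 members (20.5% of all genes, 9.79% higher and 10.7% lower), and at time 48 in 5 (23.3%, 12.4% higher and 10.9% lower), or in 5 and 4 without Met. The 6 genes of time 24 were Pdgfra, Pdgfrb, Fgfr1 and Fgfr2, which were higher, and Egfr and Met, which were lower in PKBa-/- cells. Arrays of the genotypes did not overlap in 5, 8, 5, 7 and 7 members at times 0, 2, 6, 24 and 48, against 43.6%, 74.7%, 40.6%, 34.1% and 38.8% of all genes tested. The count at time 2, with 2 arrays against 2, is thus near what most genes showed. Met is in the count of every time, with its PKBa-/- level under the signal limit.

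**Figure D3:**
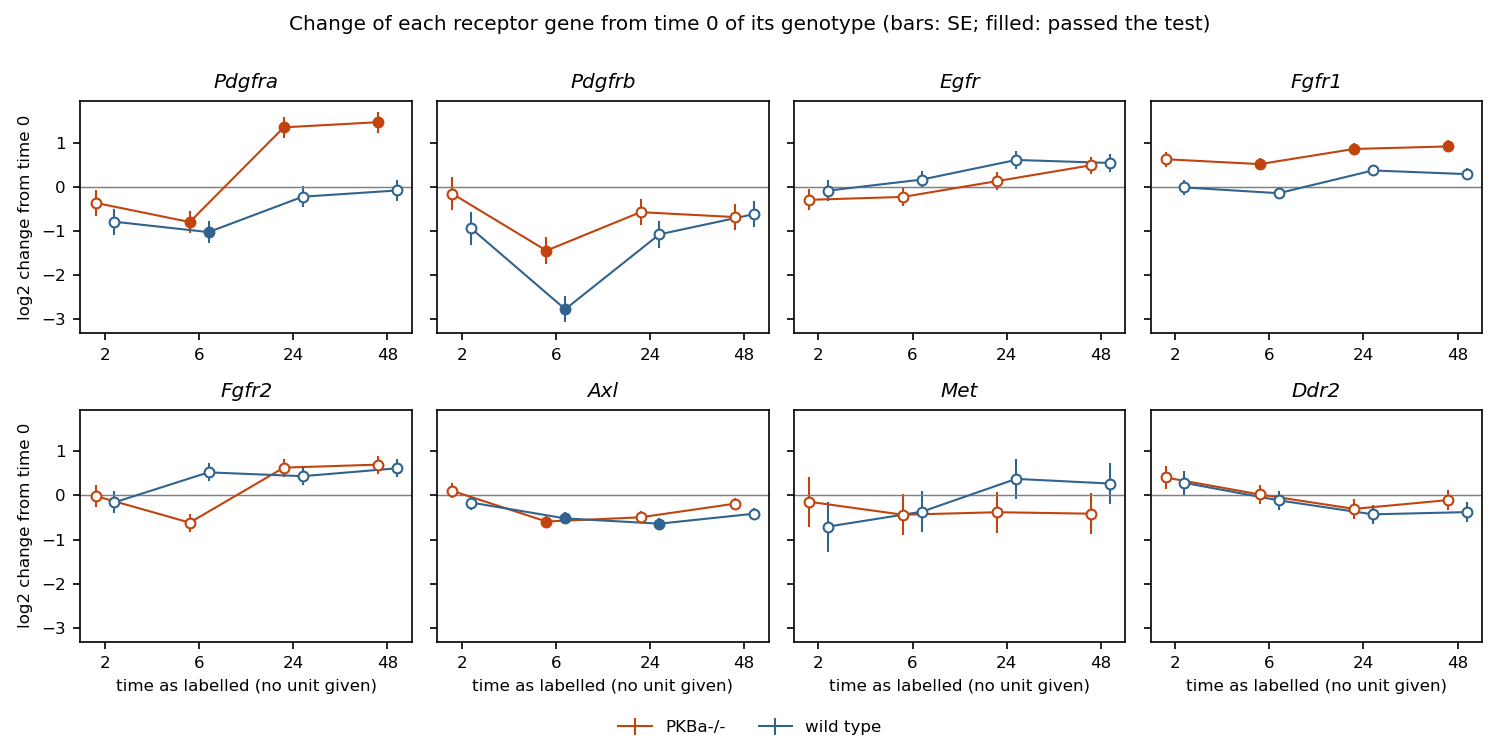
Log2 change of each receptor gene from time 0 of its own genotype at times 2, 6, 24 and 48 (± SE from the limma fit), with PKBa-/- in orange and wild type in blue; filled circles passed. The fit is the one without the replicate block, in which Pdgfra and Fgfr1 have filled points above 0 at times 24 and 48 in PKBa-/- alone, and Pdgfrb is lowest at time 6 in both genotypes.

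The later times of a genotype share its time 0 arrays. Counts without the replicate block come first. In PKBa-/- cells 4 of 8 passed at time 6 (18.4% of all genes tested, 8.62% higher and 9.78% lower), Fgfr1 higher and Pdgfra, Pdgfrb and Axl lower. In wild type cells the 3 that passed at time 6 (12% of all genes tested, 4.24% higher and 7.72% lower) were Pdgfra, Pdgfrb and Axl, all lower. At time 24 Pdgfra and Fgfr1 passed in PKBa-/- (2 of 8, both higher; 6.15% of all genes, 2.8% higher and 3.35% lower). Axl passed in wild type cells at that time (1 of 8, lower; 5.68% of all genes, 2.22% higher and 3.46% lower). At time 48 Pdgfra and Fgfr1 passed in PKBa-/- (2 of 8, both higher; 7.42% of all genes, 3.07% higher and 4.36% lower), and 0 of 8 in wild type cells in the limma fit (6.05% of all genes, 2.15% higher and 3.9% lower). There 3 members had an unadjusted p below 0.05, and 5 passed with arrays as replicates. With the replicate block 6, 6 and 6 members passed at times 6, 24 and 48 in PKBa-/- (37%, 22% and 25.4% of all genes tested), and 5, 7 and 4 in wild type cells (32.1%, 22.2% and 23.5%). The PKBa-/- counts include Met at each of these times, at a level under the signal limit. At time 2 Fgfr1 passed with the block in PKBa-/- cells (0.67, adjusted p = 0.0091). In wild type cells Pdgfra (-1.03, adjusted p = 0.00072) and Pdgfrb (-1.10, adjusted p = 0.008) did. Without the block, limma called 0 of 8 at time 2 in PKBa-/- (3.4% of all genes, 2.17% higher and 1.24% lower) and 0 of 8 in wild type cells (2.73%, 1.3% higher and 1.43% lower). There 1 member in PKBa-/- and 2 in wild type cells had an unadjusted p below 0.05, and 1 and 2 passed with arrays as replicates. In PKBa-/- that member was Fgfr1 (0.62 ± 0.16, adjusted p = 0.065), which passed without PKBa-/- time 0 replicate 1 (0.72, adjusted p = 0.045) or time 2 replicate 1 (0.69, adjusted p = 0.040).

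Whether these time courses differed between the genotypes was asked by an F test over the 4 later times, which limma called in 0 of the 8 receptor genes, against 1.75% of all genes tested. Of the 8, 4 had an unadjusted p below 0.05, and the same number passed with arrays as replicates. Pdgfra came nearest (adjusted p = 0.057), followed by Fgfr2 (0.099), Fgfr1 (0.32) and Pdgfrb (0.40). Pdgfra passed without wild type time 0 replicate 3 (adjusted p = 0.046), without PKBa-/- time 24 replicate 4 (0.049), without PKBa-/- time 6 replicate 2 (below 0.05 before rounding) and without time 2 altogether (0.043). The PKBa-/- change of Pdgfra minus its wild type change was 1.57 ± 0.34 at time 24 (adjusted p = 0.069) and 1.54 ± 0.34 at time 48 (adjusted p = 0.053), with 95% intervals of 0.83 to 2.31 and 0.80 to 2.29. For Fgfr2 at time 6 it was -1.14 ± 0.28 (adjusted p = 0.11), for Pdgfrb at time 6 1.33 ± 0.42 (adjusted p = 0.26), and for Fgfr1 at time 6 0.66 ± 0.19 (adjusted p = 0.19). At the single times 2, 6, 24 and 48, limma called 0 members, against 0.242%, 0.551%, 0.726% and 1.14% of all genes tested, with 1, 3, 2 and 2 members at an unadjusted p below 0.05 and 0, 3, 1 and 2 passing with arrays as replicates. The Pdgfra value at time 48 passed when any of 5 single arrays was left out (wild type time 0 replicate 3 or time 48 replicate 1, or PKBa-/- time 0 replicate 2 or 3 or time 48 replicate 3), with adjusted p of 0.043 to 0.049. The replicate block changed this result. With it 5 of the 8 members passed the F test, against 14.9% of all genes tested, namely Pdgfra (adjusted p = 6.7e-05), Fgfr2 (6.8e-05), Met (0.0024), Pdgfrb (0.0091) and Fgfr1 (0.043). Of these, Met was under the signal limit in PKBa-/- cells and was tested through its wild type level. Blocked, the difference of the Pdgfra changes passed at times 24 and 48 (adjusted p = 0.00012 and 7.9e-05), and it was 1.47 and 1.48 within replicates 1 and 2 and 1.67 and 1.61 within replicates 3 and 4. At time 6 those of Fgfr2 (adjusted p = 0.00017), Pdgfrb (adjusted p = 0.0069) and Fgfr1 (adjusted p = 0.027) passed with the block. So did those of Met at times 24 and 48 (-0.75 and -0.68, adjusted p = 0.0091 and 0.01) and of Fgfr1 at time 48 (0.63, adjusted p = 0.024). Whether the Pdgfra time course differs between the genotypes thus turns on the block.

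Ranked by mean signal over the 10 groups, Pdgfra was highest in PKBa-/- cells at time 48 (3345 ± 49.3) and time 24 (3103 ± 387), both apart from all other groups, and lowest in PKBa-/- cells at time 6 (676 ± 69.3; SD, n = 4 each). Pdgfrb ran from 1332 ± 137 in PKBa-/- cells at time 0 to 82.0 ± 6.97 in wild type cells at time 6 (SD, n = 4 each), a 16.3-fold span of raw signal, the widest of the 8 brightest probe sets, whose lowest mean lies under the signal limit. On the dimmer Pdgfrb probe set the span was 7.02-fold. The other spans of raw signal were 4.95-fold for Pdgfra, 4.82-fold for Met, 3.65-fold for Fgfr2, 2.54-fold for Egfr, 2.43-fold for Ddr2, 2.18-fold for Fgfr1 and 1.93-fold for Axl. For Egfr, Fgfr1, Axl and Met each of the 9 neighbouring pairs of groups in this order overlapped in their arrays, so that no step between neighbours exceeded the spread. For Ddr2 7 of the 9 overlapped, for Pdgfra and Fgfr2 6, and for Pdgfrb 5.

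Of the 17 probe sets, 14 were bright enough for the same fit on all probe sets, and 12 of them passed in the averaged comparison (43.8% of 12228 probe sets tested). The 3 left out were an Axl and 2 Egfr probe sets with mean signals of 17.9, 93.1 and 102. Where a gene had further tested probe sets, they had the sign of the brightest one in the averaged difference. The dimmer Pdgfrb probe set gave 0.96 ± 0.07 (adjusted p = 4.7e-07), with 330.4, 288, 310.0 and 275 in PKBa-/- and 104, 111, 71.8 and 110.1 in wild type arrays at time 6. It passed at time 48 as well (0.60 ± 0.15, adjusted p = 0.013), where the brightest did not. Of the further Egfr probe sets, the brighter (mean signal 321) gave -1.26 ± 0.08 (adjusted p = 1.2e-07), a larger difference than the -0.58 ± 0.10 of the brightest. It also changed over time, with -0.96 ± 0.17 at time 6 (adjusted p = 0.0027) and 0.89 ± 0.17 at time 48 (adjusted p = 0.0076) in PKBa-/- cells, and 0.71 ± 0.17 at time 48 (adjusted p = 0.027) in wild type cells, where the brightest probe set did not pass. In PKBa-/- cells its means were 152 at time 0, 104 at time 2 and 62.8 at time 6. Those at times 2 and 6 lay under the signal limit of 123. The sizes of the fall at time 6 and of the averaged difference are therefore not well set. The brightest Egfr probe set and this one moved the same way in these changes, and differed in which changes passed without the block. The other further Egfr probe set (mean signal 176) gave -0.63 ± 0.17 (adjusted p = 0.0082) in the averaged comparison. The dimmer Pdgfra probe set passed at times 24 (1.17 ± 0.37, adjusted p = 0.045) and 48 (1.28 ± 0.37, adjusted p = 0.027) as the brightest did, but its change at time 6 did not pass in PKBa-/- (-0.61 ± 0.37, adjusted p = 0.32) or wild type (-0.46 ± 0.37, adjusted p = 0.49). Its change in PKBa-/- cells was 1.36 ± 0.37 at time 24 and 1.22 ± 0.37 at time 48 (adjusted p = 0.056 and 0.074). Over the 36 arrays, the log2 values of these further tested probe sets correlated with the brightest at 0.800 to 0.972.

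**Figure D4:**
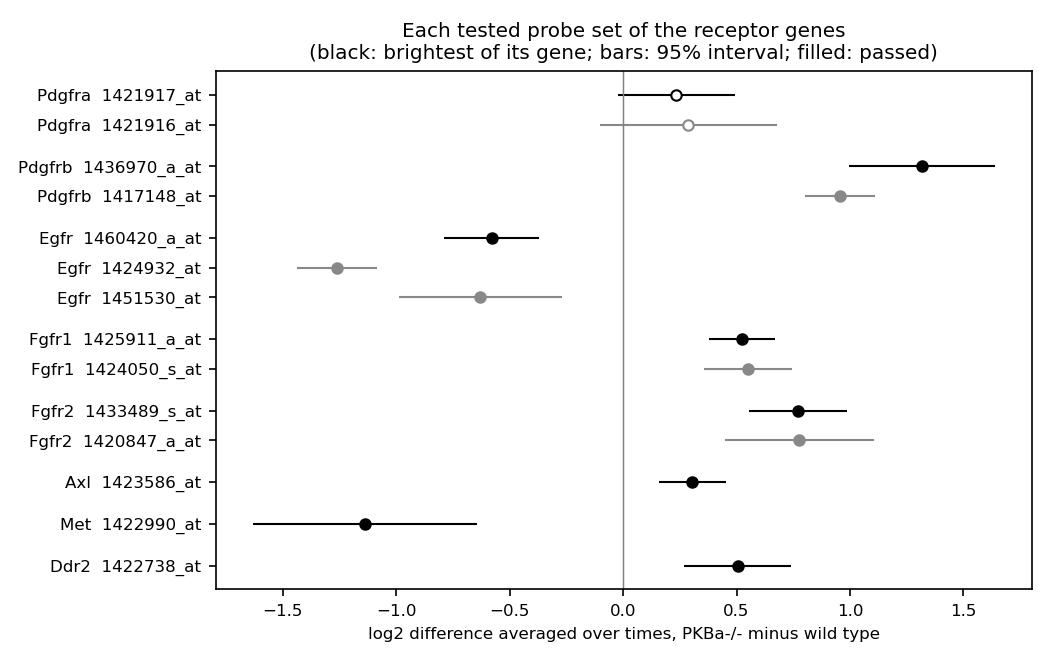
Averaged log2 difference, PKBa-/- minus wild type, of the 14 tested probe sets of the receptor genes, with 95% intervals; black marks the brightest probe set of a gene and filled circles passed. The Pdgfra probe sets cross 0, and the Egfr probe sets lie between -1.26 and -0.58.

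Across the 36 arrays, which share 10 groups and 2 genotypes, log2 values of Egfr and Met went together (r = 0.772) and both ran against Ddr2 (r = -0.797 and -0.781). Fgfr1 and Fgfr2 correlated at 0.644, Pdgfra and Fgfr2 at 0.586, and Pdgfra and Pdgfrb at 0.447. Of all tested genes, those most like each member over the 36 arrays were Peg3 (0.895) and Klhl13 (0.876) for Pdgfra, Cmtm3 (0.919) and Slmap (0.916) for Pdgfrb, Scara5 (0.823) and Matn2 (0.816) for Fgfr1, and Lgr5 (0.940) and Fbln1 (0.908) for Fgfr2. They were Tst (0.874) and Laptm4b (0.858) for Egfr, Gdpd2 (0.943) and Scp2 (0.933) for Met, Thbs1 (0.892) and Arhgef10 (0.859) for Axl, and Slc3a2 (0.910) and Slc7a5 (0.903) for Ddr2. Slc3a2 and Slc7a5 encode the chains of one amino acid transporter. Within PKBa-/- arrays alone (n = 18), Gdpd2 and Met correlated at 0.038, and within wild type arrays at 0.941. Lgr5 and Fgfr2 had 0.963 within PKBa-/- and 0.792 within wild type arrays. Klhl13 and Pdgfra had 0.982 within PKBa-/- and 0.189 within wild type arrays. These correlations describe the arrays and carry no test.

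The ligands of these receptors differed between the genotypes in both directions. Of 22 ligand genes on the array 11 were tested, and 5 were higher and 4 lower in PKBa-/- cells averaged over times, with a median of 0.01. For comparison, 26.5% of all genes tested were higher and 20.9% lower. Fgf7, an FGF that acts on a splice form of FGFR2, averaged 744 ± 222 in PKBa-/- and 142 ± 28.0 in wild type arrays (SD, n = 18 each; 2.15 ± 0.11, adjusted p = 1.1e-08). Fgf18 averaged 68.4 ± 8.03 in PKBa-/- and 467 ± 231 in wild type arrays (SD, n = 18 each; -2.23 ± 0.27, adjusted p = 3.1e-05), the PKBa-/- level being under the signal limit. It is among the 4 lower ligand genes through its wild type level, and the size of its difference is not well set. Of the PDGF chains, Pdgfa was lower (-0.77 ± 0.07, adjusted p = 1.6e-06) and Pdgfc higher in PKBa-/- cells (0.77 ± 0.09, adjusted p = 3.1e-05). Pdgfc changed in opposite directions by time 48, -0.69 ± 0.19 in PKBa-/- and 1.12 ± 0.19 in wild type cells (adjusted p = 0.049 and 0.0053), and the difference of these changes passed (-1.80 ± 0.27, adjusted p = 0.0067). Gas6, the Axl ligand, rose by time 48 in PKBa-/- (2.07 ± 0.16, adjusted p = 1.4e-05) and in wild type cells (1.84 ± 0.16, adjusted p = 6.4e-05). Hbegf, a ligand of EGFR, was higher at time 2 than at time 0 in PKBa-/- (2.18 ± 0.22, adjusted p = 0.00011) and in wild type cells (2.04 ± 0.22, adjusted p = 0.00018), and lower than at time 0 by time 24 (-0.69 ± 0.18 and -0.89 ± 0.18, both passed). Hgf, the ligand of Met, was not tested, at 67.2 ± 7.26 in PKBa-/- and 62.3 ± 6.02 in wild type arrays (SD, n = 18 each).

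Among the other receptor tyrosine kinases, 18 of 39 on the array were tested, and 4 were higher and 4 lower in PKBa-/- cells averaged over times, with a median of -0.00. This count is near the share of all genes tested that passed, 47.4%. The pseudokinase receptor gene Ptk7 was higher, at 1556 ± 379 in PKBa-/- and 457 ± 87.7 in wild type arrays (1.71 ± 0.09, adjusted p = 1.9e-08). The vascular endothelial growth factor receptors Kdr, at 235 ± 42.6 in PKBa-/- and 924 ± 369.5 in wild type arrays (-1.76 ± 0.10, adjusted p = 3.4e-08), and Flt4 (-1.23 ± 0.07, adjusted p = 2.4e-08) were lower. Kdr also marks endothelial cells, whose markers Pecam1 and Cdh5 lay below the signal limit in both genotypes. Ddr1, the other collagen receptor of the family, was lower as well (-0.97 ± 0.05, adjusted p = 2e-08), opposite to Ddr2. By time 48 Ddr1 had fallen in PKBa-/- (-0.76 ± 0.11, adjusted p = 0.0012) and risen in wild type cells (0.46 ± 0.11, adjusted p = 0.027), and Kdr had risen in wild type cells (1.65 ± 0.21, adjusted p = 0.0011). The changes differed between the genotypes for both (Kdr -1.74 ± 0.30, adjusted p = 0.012, and Ddr1 -1.22 ± 0.15, adjusted p = 0.0019).

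**Figure D5:**
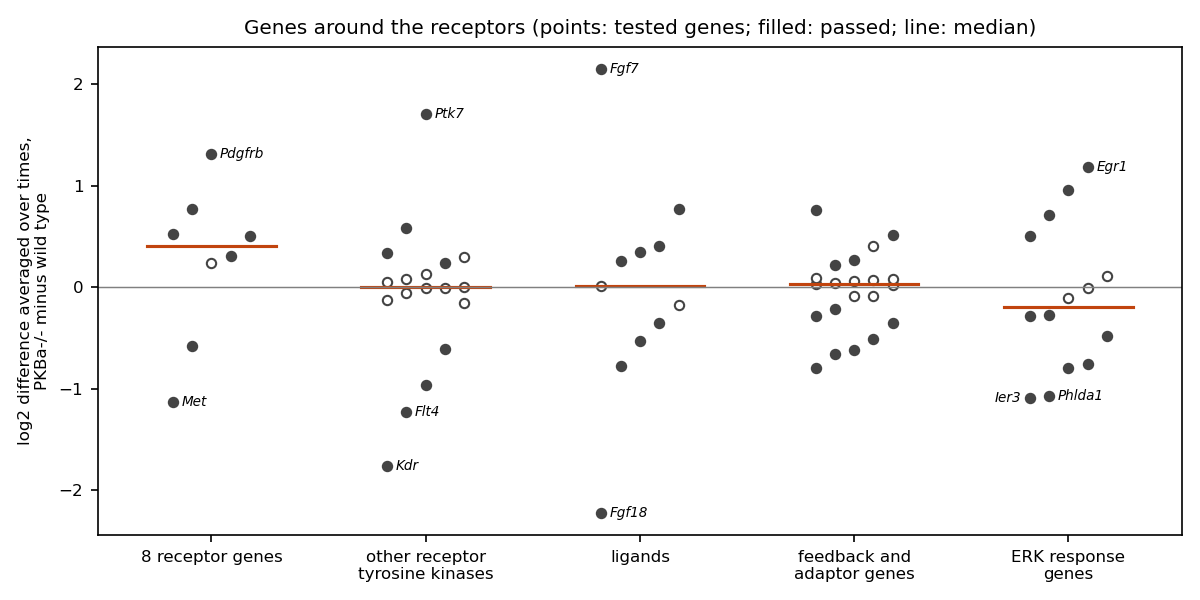
Averaged log2 difference, PKBa-/- minus wild type, of every tested gene among the 8 receptor genes, the other receptor tyrosine kinases, their ligands, feedback and adaptor genes, and ERK response genes; filled circles passed and lines are medians. The medians are 0.41, -0.00, 0.01, 0.03 and -0.19, against 0.03 over all genes tested, and genes beyond 1 in size are named.

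Feedback inhibitors and adaptors, which act on these receptors or just below them, gave 4 higher and 7 lower of 21 tested genes (25 on the array) averaged over times, with a median of 0.03. This count is also near the 47.4% of all genes tested that passed (26.5% higher and 20.9% lower). Lower in PKBa-/- cells were the ERK pathway inhibitors Spry2 (-0.80 ± 0.08, adjusted p = 3.9e-06) and Spred2 (-0.66 ± 0.10, adjusted p = 0.00014) and the docking protein gene Gab1 (-0.62 ± 0.08, adjusted p = 5.2e-05), and the receptor inhibitor Lrig1 was higher (0.76 ± 0.07, adjusted p = 2e-06). At time 2 against time 0, 5 of the 21 genes were higher and 1 lower in PKBa-/- cells, and 2 higher and 0 lower in wild type cells, against 2.17% higher and 1.24% lower in PKBa-/- and 1.3% and 1.43% in wild type cells over all genes tested. With the replicate block these were 5 higher and 2 lower in PKBa-/-, and 2 higher and 3 lower in wild type cells. The EGFR inhibitor Errfi1 gave 3.75 ± 0.31 in PKBa-/- and 2.55 ± 0.31 in wild type cells (adjusted p = 2.1e-05 and 0.00042), and the cytokine signalling inhibitor Socs3 2.69 ± 0.28 and 2.01 ± 0.28, in the same order (adjusted p = 0.00015 and 0.0013).

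ERK response genes, transcribed when the cascade below the receptors is active, gave 4 higher and 7 lower of 14 tested genes (18 on the array) averaged over times, with a median of -0.19. The shares of all genes tested were 26.5% higher and 20.9% lower. Egr1 was higher, at 1068 ± 428 in PKBa-/- and 497 ± 251 in wild type arrays (1.18 ± 0.18, adjusted p = 0.00015), as was Myc (0.96 ± 0.08, adjusted p = 7.9e-07), while Ier3 (-1.09 ± 0.10, adjusted p = 1.5e-06) and Phlda1 (-1.08 ± 0.10, adjusted p = 1.7e-06) were lower. At time 2 the change from time 0 passed in none of the 8 receptor genes without the replicate block. With it Fgfr1 passed in PKBa-/- cells, higher, and Pdgfra and Pdgfrb in wild type cells, lower. Without the block, 9 of these 14 genes had risen at time 2 in PKBa-/- cells, with a median change of 1.27. In wild type cells 3 had risen, with a median of 0.18. With the block these counts were 10 and 3. Over all genes tested 2.17% and 1.3% were higher without the block, in the same order. Between the genotypes at time 0, 1 of the 14 was higher and 6 lower in PKBa-/- cells, with a median of -0.52 (6.48% and 8.42% of all genes tested). At time 2, 3 were higher and 0 lower, with a median of 0.30 (2.97% and 2.85%). The change from time 0 in PKBa-/- cells was thus taken from a lower starting level in 6 of these genes. Fos rose in PKBa-/- (3.34 ± 0.15, adjusted p = 2.1e-07) and in wild type cells (3.01 ± 0.15, adjusted p = 5.5e-07), as did Ier3 (3.23 ± 0.24, adjusted p = 1.2e-05 in PKBa-/- and 1.75 ± 0.24, adjusted p = 0.0012 in wild type). The difference of the changes passed in 3 of the 14, against 0.242% of all genes tested, and in 5 with the replicate block. The 3 were the phosphatase gene Dusp6 (2.57 ± 0.29, adjusted p = 0.0019), Phlda1 (2.29 ± 0.34, adjusted p = 0.0099) and Myc (2.18 ± 0.28, adjusted p = 0.0039), named after their values were seen. Each genotype had 1 pair average at time 2, assumed to vary like the other groups, and Spry2 and Dusp6 stand in both of the last lists.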

How the data were processed

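Per the labels, biotinylated cRNA from total RNA was hybridized to Affymetrix arrays, and the authors deposited intensity values on a linear scale, 8.62 to 19337 over 22690 probe sets. The sources used here do not state their summarisation or normalization. Precision depends on how many arrays there are, since arrays have no read depth.

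Probe sets with several genes (691), no gene (1555) or marked as controls (64) were left out, and 20380 stayed; none with several genes named a member. The scale was log2(signal + 32), and nothing more was normalized. The lowest 40% of genes by mean log2 were not tested. To 18 pair averages a model of 10 group means was fitted with limma 3.58.1 (R 4.3.3; 8 residual and 4.23 prior degrees of freedom), two-sided, and each contrast was adjusted over 7436 genes after Benjamini and Hochberg. Contrasts were PKBa-/- minus wild type averaged and at each time, later times minus time 0, and the difference of these changes. The members, the 4 lists of related genes and the test were chosen with earlier results of these data known.

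Named genes were the 8 members, Akt1, the 2 genes most like each member, up to 4 genes a list in the averaged contrast and up to 2 a genotype in each change over time; a part of these is given, and genes outside the rule are marked or belong to the marker lists, except the comparison values of a named gene in the other genotype or at another time and Hgf. Replicate numbers were checked for pairing: correlations of deviations ran from -0.215 to 0.439 between genotypes, with 45 of 82 pairs above 0.1, so across genotypes the arrays share only a number. Within a genotype 51 of 64 pairs were above 0.1 (-0.211 to 0.72), and over times 0, 6, 24 and 48 23 of 24 were in PKBa-/- and 24 of 24 in wild type cells, so changes over time are also given with the replicate set of each genotype as a block (6 residual and 7.65 prior degrees of freedom); where this pairing comes from is not stated in the labels. In simulated data with a deviation shared within pairs, pair averages recovered 100%, 98.5% and 100% of 1.5-, 2- and 4-fold changes in the averaged contrast with 11 false calls, and arrays as replicates gave 344; at time 6 pair averages recovered 55.2%, 95.5% and 98.5% with 7 false calls, and arrays as replicates gave 394; where deviations were independent, arrays as replicates gave 6 and 15. The simulated deviations were drawn anew for each pair of each group, and none was carried over the times of a genotype. False calls of the averaged contrast under the pairing over times were thus not simulated. Alternatives were other offsets, filters, probe set means, quantile normalization, arrays as replicates, a random pair effect, replicate blocks, a replicate set covariate, an intensity trend, each replicate set alone and each array left out. Leaving out time 2 was chosen after seeing the data.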

Additional observations from a re-analysis of the deposited data

Results flagged for a closer look

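Among 64 groups of 4 arrays of the member probe sets, 1 array stood apart from the other 3 by Dixon's test, and chance gives about 1 in 20. It was Fgfr1 in wild type replicate 1 at time 24, with a signal of 2017.4, where the next array had 1626. In 3 cases every array of one genotype lay on one side of the mean of its time 0 arrays, and every array of the other genotype on the opposite side. Fgfr1 at time 6 differed in its change by 0.66 (adjusted p = 0.19 in limma), higher in PKBa-/- and lower in wild type cells. Its wild type change was -0.38 within replicates 1 and 2 but 0.09 within replicates 3 and 4. Fgfr2 at time 6 differed by -1.14 (adjusted p = 0.11), lower in PKBa-/- and higher in wild type cells. Axl at time 2 differed by 0.26 (adjusted p = 1), higher in PKBa-/- and lower in wild type cells. None of these 3 differences passed without the replicate block; with it those of Fgfr1 (adjusted p = 0.027) and Fgfr2 (adjusted p = 0.00017) did.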

How the results depend on the processing

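No result changed sign once called. Of 36 called member values, arrays as replicates and both replicate block fits kept 36, no filter and a random pair effect kept 33 each, quantile normalization kept 32, averaging all probe sets of a gene kept 30, and leaving out each array kept 467 of 476. The counts of members that passed were 7 averaged, 1, 2, 3, 6 and 5 between genotypes at the 5 times in order, 0, 3, 1 and 0 from time 0 in wild type, 0, 4, 2 and 2 in PKBa-/-, and 0 in the F test. Without 1 array the counts ran from 7 to 7 averaged, from 0 to 3 between genotypes at time 2, from 1 to 2 in wild type at time 24, from 0 to 1 in PKBa-/- at time 2 and from 0 to 1 in the F test, which Pdgfra passed when PKBa-/- replicate 2 of time 6, PKBa-/- replicate 4 of time 24 or wild type replicate 3 of time 0 was left out. Smaller moves of the other counts are not listed, here or for the settings below. Between genotypes, Fgfr1 at time 24 passed in 7 of 8 such runs and Axl at time 48 in 6 of 8. In PKBa-/- at time 6 the change of Pdgfra passed in 6 of 8 and that of Fgfr1 in 7 of 8. At time 2 between genotypes 1 passed with an offset of 64, with the intensity trend, with the mean of all probe sets and after quantile normalization, and 0 without a filter. The mean of all probe sets and quantile normalization each gave 2 at time 0 and 1 in the F test, as did leaving out time 2 for the F test (1).

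Arrays as replicates gave 6, 5, 5 and 8 between genotypes at times 0, 2, 6 and 48; 2, 6 and 5 in wild type at times 2, 24 and 48; 1, 5 and 5 in PKBa-/- at the same times; and 4 in the F test. A random pair effect gave 4 and 5 between genotypes at times 0 and 6; 2, 3 and 2 in wild type at times 2, 24 and 48; 4 in PKBa-/- at time 48; and 3 in the F test. The replicate block by replicate set gave 4, 5 and 8 between genotypes at times 0, 6 and 48; 2, 3 and 3 in wild type and 1, 4 and 5 in PKBa-/- at times 2, 24 and 48; and 3 in the F test. Arrays with a replicate block by number gave 6, 6, 6 and 8 between genotypes at times 0, 2, 6 and 48; 2, 5, 7 and 5 in wild type and 2, 7, 7 and 6 in PKBa-/- at the 4 later times; and 6 in the F test. With the replicate set within genotype as covariate, 4, 4, 6 and 8 passed between genotypes at those times. These genotype differences are set at the level of replicates 1 and 2, the reference of that fit. They are thus not the same comparison as over all arrays. From time 0 that fit gave 2, 5, 7 and 4 in wild type, and 1, 6 and 6 in PKBa-/- at times 2, 24 and 48. It gave 5 in the F test. Replicates 1 and 2 alone, with arrays as replicates, gave 6, 7, 6 and 8 between genotypes, 2, 6, 7 and 5 in wild type, 4, 7, 6 and 6 in PKBa-/-, and 8 in the F test. Replicates 3 and 4 alone gave 6 and 6 between genotypes at times 0 and 6; 5, 7 and 3 in wild type at times 6, 24 and 48; 7 and 5 in PKBa-/- at times 24 and 48; and 5 in the F test. Over all genes, 1108 passed between genotypes at time 0 and 3078 with arrays as replicates, and 130 in the F test, 505 with a random pair effect and 1617 with arrays as replicates, which in simulated data of the averaged contrast gave 344 false calls where pairs shared a deviation and 6 where they did not.

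Among the lists, 8 of the other receptor tyrosine kinases passed in the averaged contrast, and 14 without a filter, 13 with 20% of genes left out and 13 in replicates 3 and 4 alone. Of the ligands 9 passed, and 16 without a filter. Of the feedback and adaptor genes 11 passed, and 17 within either replicate set alone. Quantile normalization moved the share of passed genes that were higher from 43.5% to 53.2% for the genotype contrast at time 0, from 35.4% to 47.4% for wild type time 6, from 35.6% to 46.9% for wild type time 48 and from 63.6% to 52.1% for PKBa-/- time 2, and the median of all genes by less than 0.05. Low signals limit Met in PKBa-/- cells and Pdgfrb in wild type cells at time 6. They also limit the further Egfr probe set with a mean signal of 321 in PKBa-/- cells at times 2 and 6.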
